A study of Mus musculus with 2 samples.

Results

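The miRNAs described here are the miR-466 and miR-297 families, measured in extracellular vesicles (EVs), the membrane particles that cells shed into their medium, from cultured mouse astrocytes. They were found by name, as every miRNA probe of a rat code set that begins with rno-miR-466 or rno-miR-297, whatever its letter or arm. The naming rule uses no measured value, but the families were picked with earlier results of these data known. Of 420 miRNA probes, 4 qualified: rno-miR-466b, rno-miR-466c, rno-miR-466d and rno-miR-297, written without the rat prefix from here on. In short, miR-466c was among the highest probes of both preparations by raw count. In the authors' deposited signals it ranked 28 of 119 and 30 of 124. The miR-466d and miR-466b probes were moderate, within the range of probes with no mouse miRNA gene of the same number. The miR-297 probe was not above background, and none of the 3 miR-466 probes differed 2-fold between the preparations.

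EVs came from primary cortical astrocytes isolated on postnatal day 1, and the labels give GFAP-EGFP as the strain of both samples, in which the promoter of the astrocyte gene Gfap drives enhanced green fluorescent protein. In the IL-1β sample, cells received IL-1β, a cytokine of brain inflammation, at 200 ng per ml in EV-free medium, and the medium was collected after 2 h. The control sample carries no treatment, and its EVs are, per the series' design text, those shed in 24 h, so treatment and collection time changed together and cannot be told apart. Per the labels' protocols, EVs were pelleted at 100000 g, cultures were at passages 3 to 10, and 98% of the cultured cells were GFAP+. Each group held 1 sample, pooled from several flasks. No test across replicates was therefore possible, no p-value is given, and every ratio compares 2 preparations. In a bulk preparation, more vesicles and more of a miRNA per vesicle cannot be told apart.

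In mouse and rat, a large array of related miRNA genes lies inside an intron of Sfmbt2, a Polycomb-group gene. In both species the gene is imprinted and is expressed from the paternal copy in the placenta, and deletion of the array in mouse disturbs placental development. The array holds the families miR-297, miR-466, miR-467 and miR-669, whose hairpins resemble simple dinucleotide repeats. A mature miRNA guides Argonaute proteins to messenger RNAs that pair with its seed, bases 2 to 8, so members with different seeds pair with different sites.

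In the mouse annotation (RefSeq, GRCm38.p6), Sfmbt2 occupies chr2:10370440-10595253. Of 29 mouse miR-466 genes, 24 lay within these bounds, as did 5 of 6 miR-297 genes, 14 of 17 miR-467 genes and 29 of 30 miR-669 genes. All 72 genes fell in a stretch of 51617 bases, chr2:10466663-10518279. The mouse genes that share a name with the probes were 8 copies of miR-466b, 3 of miR-466c and 1 of miR-466d. Examples are Mir466b-1 at chr2:10474219-10474300, Mir466c-1 at chr2:10481534-10481617 and Mir466d at chr2:10511967-10512062. The miR-297 genes within Sfmbt2 carry letters that the probe's name lacks, such as Mir297a-2 at chr2:10472254-10472343. The code set held 0 probes for miR-467, miR-468 or miR-669, so the array was seen through these 4 probes. Several gene copies can give the same mature RNA, and counts cannot be assigned to a copy or to a gene outside Sfmbt2.

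**Figure D1:**
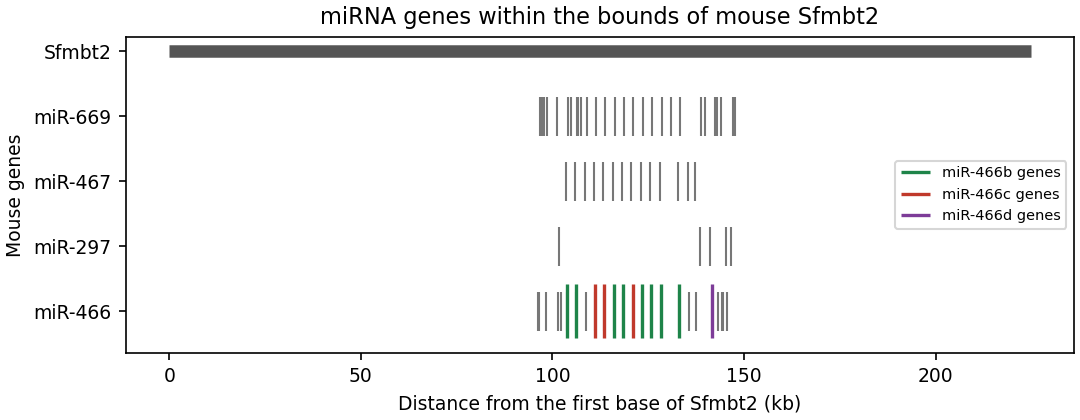
Position of the 72 mouse miRNA genes of the families miR-466, miR-297, miR-467 and miR-669 within Sfmbt2, in kb from the gene's first base; each vertical line is 1 gene and the thick bar is Sfmbt2. Coloured lines mark the 8 miR-466b, 3 miR-466c and 1 miR-466d genes, whose rat namesakes were probed.

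The family's sequence is shown through the 4 mature miR-466 entries of RefSeq's mouse table (GRCm38.p6), since repeat-like sequence is what sets these miRNAs apart from others. Of the 4 probed names, 0 matched a mature entry. The entries below come from genes outside Sfmbt2, on the plus strand of chr13:17747552-17747573 (miR-466i-3p), chr3:28419988-28420007 (miR-466q), chr3:85467396-85467418 (miR-466k) and chr10:60960802-60960824 (miR-466j). Each is written 5′ to 3′ with the seed in capitals.
mmu-miR-466i-3p: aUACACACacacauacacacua
mmu-miR-466q: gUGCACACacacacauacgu
mmu-miR-466k: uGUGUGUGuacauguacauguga
mmu-miR-466j: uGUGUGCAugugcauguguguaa
The first pair is made mostly of C and A, at 86.4% and 70.0% of the bases, and the second pair mostly of U and G, at 69.6% and 73.9%. Their longest unbroken alternations of those bases, counted in single bases, were 11, 12, 9 and 7. The 4 seeds all differed, and no other of the table's mature miRNAs shared any of them. These 4 were its only mature miR-466 or miR-297 entries, so seeds of the genes within Sfmbt2 were not compared. The run CACACA or its reverse complement UGUGUG, searched on the RNA strand only, was present in all 4, and in 40 of all 1679 mature miRNA names of the table (2.38%). The 40 include these 4, and the run is the repeat seen in them, so its presence in all 4 is a description and not a test. For miR-297, the table holds the hairpin of Mir297-1 (chr7:10958437-10958512, minus strand), also outside Sfmbt2, shown because it carries the same kind of run, with UGUGUG in capitals.
Mir297-1: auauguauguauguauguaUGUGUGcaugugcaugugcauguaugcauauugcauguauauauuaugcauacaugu
The probe sequences themselves were not used here, so how far 1 probe binds its relatives was not tested.

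RNA was counted on the NanoString nCounter, where tagged small RNAs bind colour-coded reporters that are then counted. The 420 miRNA probes totalled 13514 counts with IL-1β and 16812 in control EVs, with a median of 5 counts per probe in each. A probe was called above background where its raw count was higher than the negative-control mean + 2 SD (8 controls), or 9.67 counts for IL-1β and 6.41 for control EVs. The 6 astrocyte-abundant miRNAs examined were all above background, with 91 to 1478 counts in IL-1β and 184 to 1660 in control EVs. They are a selection and do not stand for all miRNAs of astrocytes. Left out of the list and not above background were miR-9 (0 and 1 counts in IL-1β and control EVs), miR-26a (6 and 3) and miR-23b (2 and 1). Those of neurons (1 and 2 of 5 above background in IL-1β and control EVs), microglia and leukocytes (1 and 2 of 3), oligodendrocytes (0 and 1 of 2), endothelium (0 and 1 of 1) and erythroid cells (0 and 0 of 2) gave 12 counts or fewer per probe. Mesenchymal miRNAs were not in these lists. Of them, miR-145 counted 397 and 775, miR-199a-3p 246 and 425, miR-199a-5p 87 and 157, miR-214 110 and 104, and miR-143 3 and 4. The listed miRNAs are abundant in, not exclusive to, their cell types, so purity was not tested. Reporters for 4 mRNAs totalled 39568 with IL-1β and 1175 in the control, and whether this bears on the ratios below was not tested. For comparison, 69 probes have no mouse miRNA gene of the same number and had medians of 15 and 13 counts, against 5 over all probes. They were matched by number and not by sequence, so whether their counts are background was not tested.

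Of the 4 probes, 3 were above background with IL-1β and 3 in control EVs, against 34.8% and 44.0% of all 420 probes. Of the 69 probes with no mouse number, 41 (59.4%) and 49 (71.0%) also passed, shares closer to 3 of 4 than those of all probes. The same 3, miR-466b, miR-466c and miR-466d, passed in both samples. Intervals below are at 95% confidence and cover counting error only.

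The miR-466c probe counted 600 in the IL-1β preparation (exact Poisson interval 552.9 to 650.0) and 486 in the control (443.7 to 531.2). It stood 62.1 and 75.8 times above the background thresholds, at rank 2 of 420 with IL-1β and rank 8 in control EVs. No probe without a mouse number reached it, the highest of them being miR-3583-3p with 270 and 238 counts. Its share of miRNA counts was 4.44% (exact Clopper-Pearson interval 4.10 to 4.80) with IL-1β, against 2.89% (2.64 to 3.16) in the control.

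The name of the miR-466c probe carries a factor of 0.039, taken to mean that the probe's own background is this fraction of the top positive control. That control had 6048 counts in the IL-1β lane and 4231 in the control lane, so the factor amounts to 235.9 and 165.0 counts. With them subtracted, miR-466c was at 364.1 counts with IL-1β and 321.0 in control EVs, or 60.7% and 66.0% of the raw counts, at ranks 7 and 13. Those values were still above the highest probe with no mouse number in each sample. The code set holds 3 probes with a factor above 0. The other two, both for miRNAs of other loci, went below 0: miR-208 in both samples (-25.8 and -12.9 counts) and miR-290 in IL-1β EVs (-104.3, against 59.5 in the control). Of these 3 probes, miR-466c was thus the one whose factor-subtracted count stayed above the background threshold in each sample. The authors' deposited signals were positive for the other probes too. Divided by the raw count, in IL-1β and control EVs, they were 1.892 and 3.805 for miR-208 and 7.044 and 7.438 for miR-290. Whether the factor is the right background for these samples was not tested.

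The miR-466d probe counted 99 with IL-1β (80.5 to 120.5) and 97 in the control (78.7 to 118.3), at ranks 35 and 40. The miR-466b probe gave 54 (40.6 to 70.5) and 58 (44.04 to 74.98), at ranks 58 and 57. For each probe the intervals of the samples overlapped almost completely. These are raw counts, not scaled between the lanes, and the direction depended on the scaling, as given below. Their names carry a factor of 0, so subtraction leaves them as they are. Both were within the range of the probes with no mouse number: 4 and 5 of those 69 had at least as many counts as miR-466d in IL-1β and control EVs, and 12 and 10 had at least as many as miR-466b. With the 95th percentile of those probes as the threshold, 111.8 counts in IL-1β and 104.6 in control EVs, miR-466c alone passed.

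The miR-297 probe had 0 counts with IL-1β and 1 in control EVs, below the negative-control mean of 3.12 and 3.25. A count of 0 among 13514 allows a share of up to 0.0222% of miRNA counts if 3 counts are taken as the limit, and the exact interval used for the other shares reaches 0.0273%. No ratio was computed, and a lower level of miR-297 was not detectable at this depth.

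**Figure D2:**
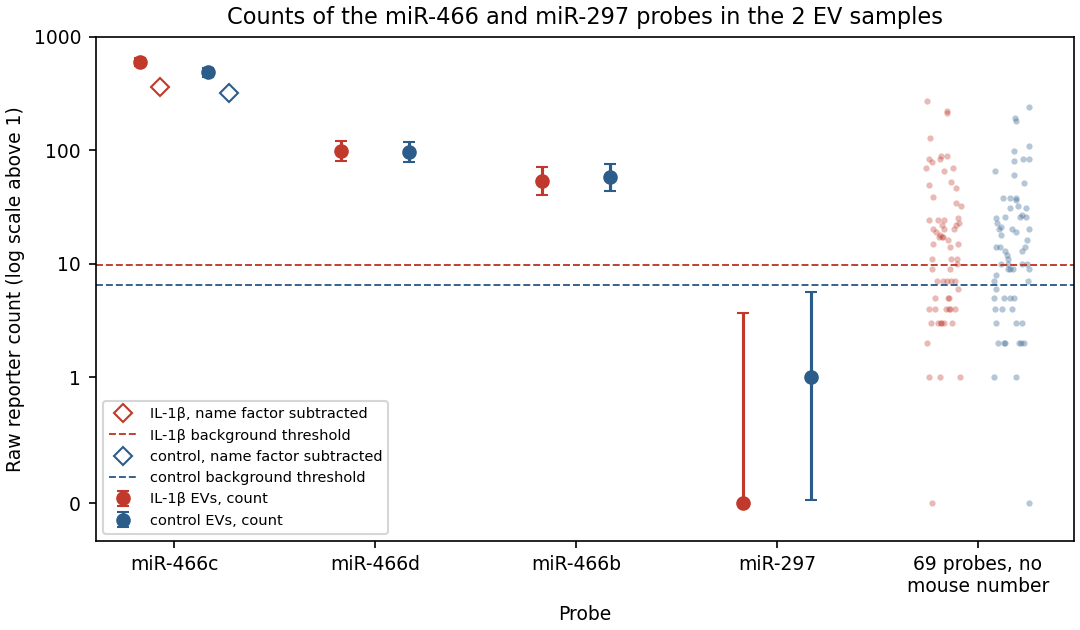
Raw reporter counts of the 4 probes (filled circles, bars are exact 95% Poisson intervals) in IL-1β (red) and control (blue) EVs, on a log axis that is linear below 1; open diamonds are miR-466c with its name factor subtracted, dashed lines the background thresholds, and small dots the 69 probes with no mouse number. The miR-466c probe lies above all small dots, with or without subtraction, miR-466d and miR-466b lie among the upper ones, and miR-297 lies below both thresholds.

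Summed, the 4 probes held 753 counts with IL-1β and 642 in control EVs, or 5.57% (5.19 to 5.97) and 3.82% (3.53 to 4.12) of miRNA counts. Most of the sum was miR-466c, with 79.7% of it in IL-1β EVs (76.6 to 82.5) and 75.7% in the control (72.2 to 79.0). With the factor subtracted the summed shares were 3.94% (3.61 to 4.28) and 2.90% (2.64 to 3.16). Without miR-466c they were 1.13% (0.961 to 1.33) and 0.928% (0.789 to 1.08), with overlapping intervals. The non-overlapping intervals of the summed share thus came with the miR-466c probe.

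To compare the preparations, the 100 probes highest on average set the scale through their geometric mean, which gave an IL-1β over control factor of 0.875. A probe was called higher or lower where it was at least 2-fold apart with an interval that excluded 1. Of the 3 probes above background, 0 were called higher and 0 lower, against 5.62% and 9.38% of the 160 probes with a ratio or a bound. The miR-466c ratio of IL-1β over control was 1.41 (1.25 to 1.59), or 0.50 on the log2 scale. The ratio of miR-466d was 1.17 (0.872 to 1.56) and that of miR-466b 1.06 (0.720 to 1.57). By the interval alone, with no fold minimum, 1 of the 3 was higher (miR-466c) and 0 lower, against 19.4% and 16.9% of all 160. With its factor subtracted, the miR-466c ratio was 1.30, with an interval of 1.07 to 1.57 by the delta method.

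These ratios lay within the bulk of the probes of the code set. Over the 139 probes above background in both samples the median ratio was 1.21 (quartiles 0.851 and 1.46), and over the 3 miR-466 probes it was 1.17. The miR-466c probe ranked 40 of 139 by ratio, miR-466d 75 and miR-466b 90. Relative to the median probe, which this scaling places 0.27 above 0 on the log2 scale, the ratio of miR-466c was 1.17 (1.03 to 1.32), that of miR-466d 0.965 (0.722 to 1.29) and that of miR-466b 0.881 (0.596 to 1.30). With its factor subtracted, miR-466c was at 1.07 (0.887 to 1.30) against the median probe, an interval that held 1. The miR-466d and miR-466b ratios thus changed sides of 1 when set against the median probe, within their counting intervals.

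**Figure D3:**
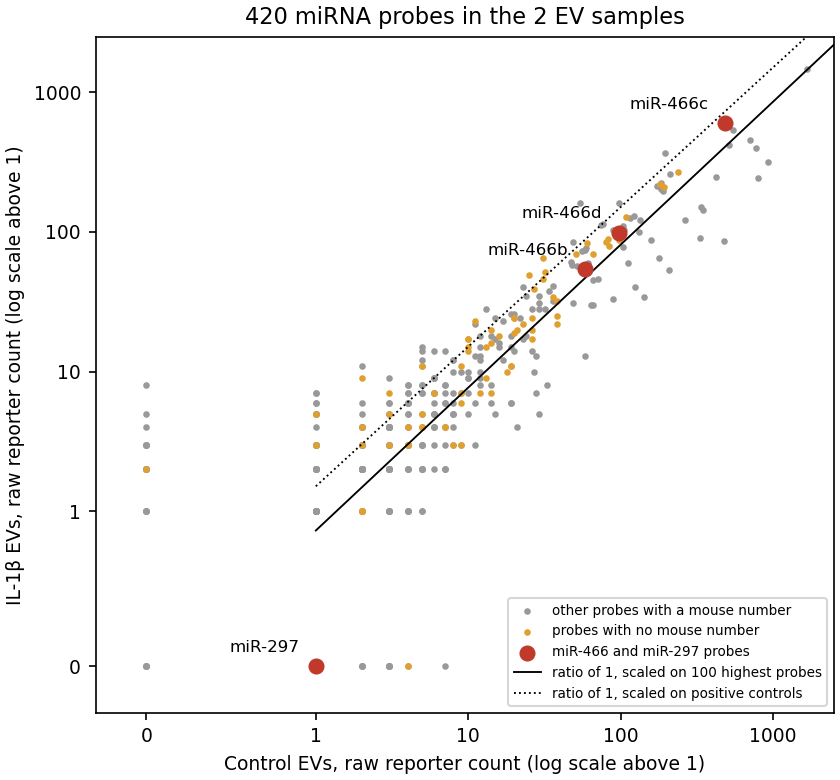
Raw reporter counts of 420 miRNA probes in control EVs (horizontal) and IL-1β EVs (vertical), on log axes that are linear below 1; large red points are the miR-466 and miR-297 probes and small orange points the 69 probes with no mouse number. The solid line is a ratio of 1 after scaling on the 100 highest probes and the dotted line after scaling on positive controls: the miR-466 points lie on or above the former and below the latter.

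The direction depended on the scaling. On the 6 positive controls, which add a fixed amount of target to each lane, all 3 ratios and their intervals lay below 1: miR-466c 0.819 (0.725 to 0.925), miR-466d 0.677 (0.506 to 0.905) and miR-466b 0.618 (0.418 to 0.910). That scaling moved every log2 ratio by -0.78. With no scaling, miR-466c was at 1.23 (1.09 to 1.39), or 1.13 (0.938 to 1.37) with the factor subtracted, while miR-466d was at 1.02 (0.763 to 1.36) and miR-466b was at 0.931 (0.631 to 1.37).

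Comparisons between the miR-466 probes need no scaling, since any factor cancels. The IL-1β over control ratio of miR-466c was 1.33 times that of miR-466b (exact conditional interval 0.881 to 2.00), and that of miR-466d was 1.096 times (0.671 to 1.79). Set against miR-466c, miR-466d was at 0.827 (0.603 to 1.14). Subtracting the factor brought the miR-466c over miR-466b value to 1.22 (0.804 to 1.85), by the delta method. All 3 intervals held 1, so no difference between the members was detectable at these counts.

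**Figure D4:**
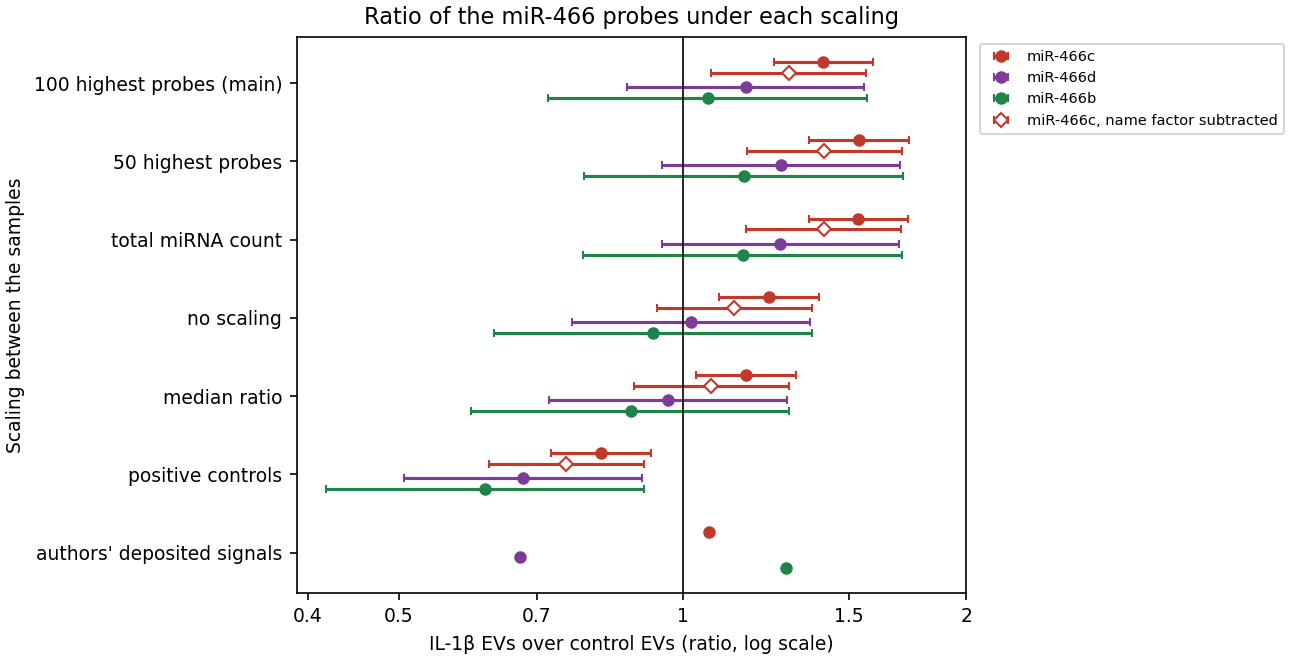
Ratio of IL-1β over control EVs for the 3 miR-466 probes (filled circles) under each scaling, on a log axis; open diamonds are miR-466c with its name factor subtracted, bars are 95% counting intervals, and the bottom row shows the authors' deposited signals, which have no interval. The intervals of miR-466d and miR-466b hold 1 under every count-based scaling but positive controls, where all lie below 1.

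The probes with the most similar pair of counts were found by the distance between log2 counts over the 2 samples, as a description of 2 points each. Nearest to miR-466c was miR-125a-5p, an astrocyte-abundant miRNA, with 537 and 545 counts in IL-1β and control EVs at a distance of 0.23. The next, let-7d (417 and 510) and let-7b (454 and 708), were at 0.53 and 0.68. Few probes therefore lay near miR-466c. Nearest to miR-466d were miR-325-3p (102 and 99, distance 0.05), miR-16 (103 and 105, 0.13) and miR-421 (103 and 89, 0.14). Nearest to miR-466b were miR-465 (60 and 61, 0.17), miR-15b (57 and 52, 0.18) and miR-344a-3p (58 and 48, 0.29).

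Among other clustered miRNAs, the imprinted Dlk1-Dio3 cluster had 13 of 51 probes above background with IL-1β and 14 in control EVs, with no probe over 225 counts. Its median ratio was 1.40 (range 0.7997 to 1.71) over 11 probes above background in both samples, beside 1.17 (1.06 to 1.41) for miR-466. The miR-290 cluster, another rodent array, known from embryonic stem cells, had 2 and 3 of 9 above background by raw count. These included miR-290, which was at -104.3 counts in IL-1β and 59.5 in control EVs with its factor subtracted. With 1 sample a group the differences between clusters were not tested.

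Of the 4 probes, miR-466b, miR-466c and miR-466d were listed in the authors' deposited table of normalized signals, which holds 124 of the 420 probes (29.5%). In the authors' deposited table miR-466c had a signal of 387.37 in IL-1β and 363.47 in control EVs, at rank 28 of 119 and rank 30 of 124. The miR-466b signals in the authors' deposited table were 46.58 and 36.21, and those of miR-466d 39.30 and 58.55. The miR-466c probe was thus the highest of the family in the deposited signals as in the counts. Its rank among the listed probes was lower than its count ranks, 2 and 8, which are among all 420 probes. No source used here states how they were normalized.

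The ratios of IL-1β over control in the authors' deposited table were 1.29 for miR-466b, 1.07 for miR-466c and 0.67 for miR-466d. Of these, 0 were 2-fold higher and 0 lower, against 9.24% and 8.40% of the 119 probes with both signals. In the authors' deposited table the order of the members' ratios was miR-466b, miR-466c, miR-466d, whereas by counts it was miR-466c, miR-466d, miR-466b. The miR-466d direction differed between the sources, 0.67 against a count ratio of 1.17 under the scaling on the 100 highest probes, whose interval held 1 but not 0.67, and 0.677 under positive controls. No counting interval could be given for these signals, since they are not counts, so the difference was not tested.

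Signal per raw count placed the miR-466 probes beside the probes with no mouse number. In the authors' deposited table it was 0.646 and 0.748 for miR-466c, in IL-1β and control EVs, 0.863 and 0.624 for miR-466b, and 0.397 and 0.604 for miR-466d. The 19 listed probes with no mouse number had medians of 0.592 (range 0.336 to 1.38) and 0.732 (0.493 to 1.33) in the authors' deposited table. Other probes with a mouse number had medians of 5.63 over 97 probes (range 0.342 to 47.4) and 3.33 over 102 (0.433 to 425.1). A single scaling factor per sample would give the same value for every probe. The deposited signals are thus not these raw counts multiplied by a single factor per sample, and what sets the signal per count of a probe was not tested. All 6 miR-466 values lay within the range of the former set. With raw counts of at least 50, where counting error is smaller, the other mouse-number probes in the authors' deposited table had medians of 3.59 over 44 probes and 2.24 over 49. Of these, 11 and 10 lay below the highest miR-466 value, so the low signal per count was not particular to miR-466. With the factor subtracted from the count, the miR-466c values were 1.06 and 1.13.

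**Figure D5:**
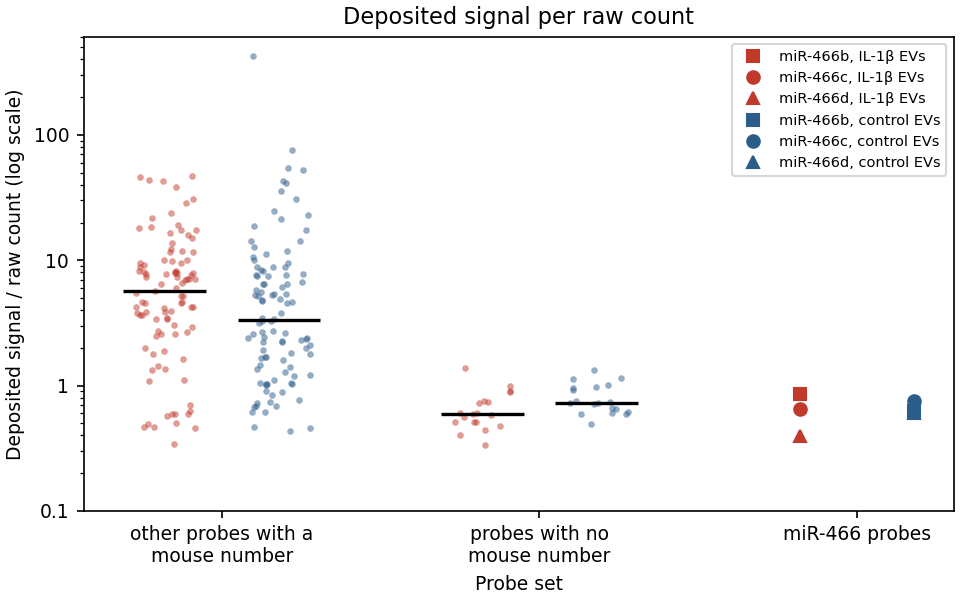
The authors' deposited signal divided by the raw count, on a log axis, for other listed probes with a mouse number, the 19 listed probes with no mouse number and the 3 miR-466 probes, in IL-1β (red) and control (blue) EVs; black bars are medians. The miR-466 values, 0.397 to 0.863, lie within the range of the probes with no mouse number.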

How the data were processed

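The authors deposited raw reporter counts, not normalized per the file headers, from an nCounter rat miRNA code set run on mouse samples. It holds 420 miRNA probes, with 8 negative and 6 positive controls, 5 spike-in and 4 mRNA probes. The authors also deposited a table of normalized signals for 124 probes with the ratio of the samples, by a method not given in the sources used here.

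Ratios of counts had exact Clopper-Pearson intervals of the split between samples, sums exact Poisson intervals, and background-subtracted ratios delta-method intervals (Python 3.11.15, SciPy 1.17.1). The code for intervals was tested on simulated data. A probe has a mouse number where RefSeq's GRCm38.p6 annotation holds a mouse miRNA gene of that number, as for 351 of 420 probes. The members, lists, thresholds and alternatives were chosen with earlier results of these data known. Named miRNAs were all members, the 3 nearest probes to each member above background, and probes with a name factor. Seeing the values came before choosing miR-3583-3p as an example, the mesenchymal miRNAs and the minimum of 50 counts for signal per count. The same holds for naming miR-9, miR-26a and miR-23b. Alternatives covered scaling, background subtraction, the threshold and the deposited signals.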

Additional observations from a re-analysis of the deposited data

How the results depend on the processing

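Scaling on positive controls turned miR-466c to 0.819, or 0.752 with its name factor subtracted, and moved miR-466b to 0.618 and miR-466d to 0.677. For miR-466c, the median ratio gave 1.17, no scaling 1.23, and the authors' deposited signals 1.07; with the factor subtracted, a combination chosen after seeing the data, the median ratio gave 1.07 (0.887 to 1.30) and no scaling 1.13 (0.938 to 1.37), so both intervals held 1. The other settings tried left miR-466c at 1.30 to 1.54. The deposited signals put miR-466d at 0.671. Subtracting the factor brought the summed share of miRNA counts to 3.94% (IL-1β) and 2.90% (control) and leaving out miR-466c to 1.13% and 0.928%, while subtracting the negative-control mean gave 5.98% for IL-1β. Against the 95th percentile of probes with no mouse number, 1 member passed in IL-1β and 1 in control EVs, since that threshold is higher. Which scaling is right was not tested, and the 5 spike-in probes, at 10 counts or fewer, were not used for scaling. No paired analysis was possible because each group held 1 sample, and for the same reason no replicate could be left out. At 54 to 99 counts, miR-466b and miR-466d could not show differences smaller than their intervals.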
